A study of Mus musculus with 8 samples.

Results

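The vascular endothelial growth factor (VEGF) family of ligands and receptors was examined in alphaTC1.9 cells, a cultured mouse line of glucagon-producing pancreatic alpha cells. The members were the rows of the array whose platform gene symbol was Vegfa, Vegfb, Vegfc, Vegfd, Pgf, Kdr, Flt1, Flt4, Nrp1 or Nrp2. Of these 10 genes, 9 had a named row, each represented by 1 probe set, out of 19494 genes named on the array; Nrp1 was not analysed here. The 9 were 5 ligands, 3 receptor tyrosine kinases and 1 co-receptor. The family was chosen by gene symbol with results for these arrays already known, and Kdr leads it because of its log2 difference between IDE-KD and control cells, so the differences of the members are given as a description without a test.

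VEGF ligands are secreted dimers that bind receptor tyrosine kinases on the surface of endothelial cells. VEGF-A acts mainly through VEGFR2, the product of Kdr, while VEGFR1, the product of Flt1, binds VEGF-A, VEGF-B and placental growth factor and can act as a decoy, and VEGFR3, the product of Flt4, binds VEGF-C and VEGF-D and governs lymphatic vessels. Neuropilins carry no kinase and hold ligand and receptor together. In the pancreas, islet endocrine cells are a source of VEGF-A, which maintains the dense fenestrated capillaries of the islet, whereas the receptors are known chiefly from the endothelium.

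RNA was read on Clariom S arrays from 4 samples of control alphaTC1.9 cells and 4 samples of IDE-KD alphaTC1.9 cells, in which a small interfering RNA had been directed at Ide, the gene of insulin-degrading enzyme, a metalloprotease of small peptides. All 8 samples came from the same line, grown in 16 mM glucose with serum and antibiotics and given no other treatment. What the control cells received, and how long after knockdown RNA was taken, is not stated in the labels. The labels call the 4 samples of a group biological replicates and independent RNA replicates. They do not say whether these came from separate cultures, so the errors describe only these samples. The SEs and intervals of differences come from limma, which draws each row's variance toward that of all tested rows. They can thus be wider or narrower than a gene's own spread would give. In such bulk RNA, fewer cells that express a gene and less of its RNA per cell cannot be told apart.

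The knockdown was visible in the targeted gene: Ide read 8.48 to 8.72 on the control arrays and 7.91 to 8.14 on the IDE-KD arrays, a log2 difference of -0.62 (SE 0.12). Over the 22142 tested rows limma called 0 at an adjusted p under 0.05 (0.00%), and 1017 rows (4.59%) had an unadjusted p under 0.05. The median difference over all tested rows was 0.01. The median depended on level: in 5 equal bins of rows from dim to bright it was 0.04, 0.06, 0.02, -0.03 and -0.03. The array's negative control rows, 5222 probe sets whose identifiers mark them as negative, had a median level of 4.16, and 95% of them lay below 6.87. Probes differ in brightness, so the share of negative control rows below a gene says how clearly it stood out, and does not rank transcripts by abundance.

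Most alpha cell markers stood out from the negative control rows, and the endothelial markers did not. The alpha cell list also held genes shared with other islet endocrine cells, such as Isl1 and Chga. Of its 11 measured genes, 8 lay above 95% of the negative control rows. Among these were Gcg, the glucagon precursor gene, at 12.06 over the 8 arrays, and the granule protein gene Chga at 10.64. The transcription factor genes Pou3f4 at 9.32 and Isl1 at 9.72 were also among them. The others of the 11 were Irx1, Ttr and Smarca1, above 90.9%, 86.0% and 66.1% of the negative control rows. Of 18 measured endothelial markers, 0 lay above 95% and 0 above 90% of the negative control rows, and 4 lay above their median. The endothelial cadherin gene Cdh5 read 2.67, the adhesion molecule gene Pecam1 4.17, the angiopoietin receptor gene Tek 3.10 and the von Willebrand factor gene Vwf 4.07, which were above 17.6%, 50.2%, 26.7% and 48.0% of the negative control rows. The endothelial markers that stood out most were Esam, a cell junction gene, at 6.07 and the receptor gene Tie1 at 4.87, above 87.2% and 65.8%. The mean over the 18 markers was 3.50 to 3.58 on the control arrays and 3.63 to 3.82 on the IDE-KD arrays. Pericyte and fibroblast markers likewise had 0 of 11 measured genes above 90% of the negative control rows.

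**Figure D1:**
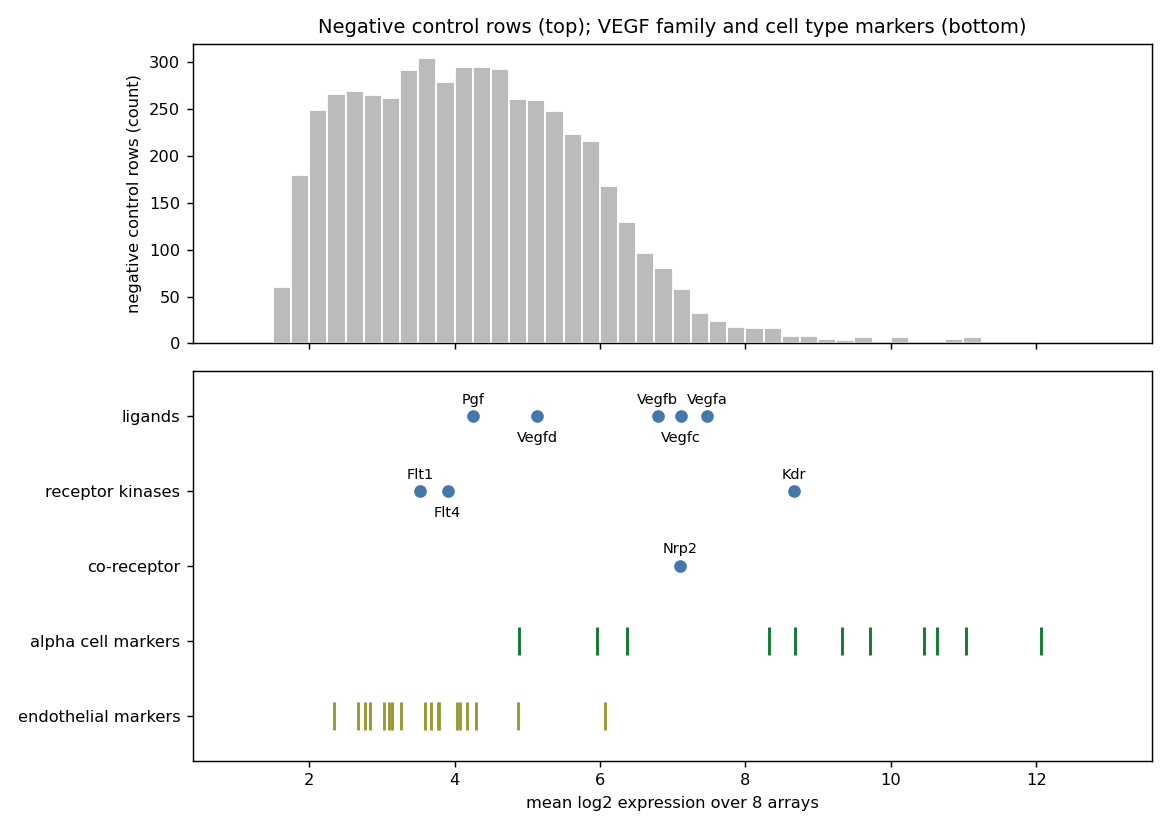
Mean log2 expression over the 8 arrays. The upper panel counts negative control rows by level (bars 0.25 wide); in the lower panel points are VEGF family genes and ticks are marker genes. Kdr, at 8.67, stands among the alpha cell markers, while Flt1 and Flt4 lie with the endothelial markers inside the bulk of the negative control rows.

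Among the ligands, Vegfa, the principal angiogenic factor of the family, was clearly expressed. Its probe set read 7.60, 7.43, 7.99 and 7.60 on control arrays 1 to 4 and 7.20, 7.51, 7.14 and 7.28 on IDE-KD arrays 1 to 4, above 97.7% of the negative control rows in control cells. All 4 IDE-KD arrays were below the control mean, but the groups overlapped, since IDE-KD array 2 was above control array 2. The means were 7.66 ± 0.24 and 7.28 ± 0.16 (SD, n = 4 each), which is -0.37 on the log2 scale (SE 0.14; 95% confidence interval, -0.68 to -0.06) and 1.29-fold lower in IDE-KD cells. The highest control array, number 3, had a part in that value, which was -0.26 without it.

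Vegfb, whose product binds VEGFR1 and is linked to heart and fatty acid handling more than to vessel growth, leaned the other way. Control arrays read 6.65, 6.79, 6.63 and 6.56, and IDE-KD arrays 7.05, 7.24, 6.39 and 7.02. On 3 of the 4 IDE-KD arrays it was above every control array, and on IDE-KD array 3 below every one. The log2 difference was 0.27 (SE 0.17, interval -0.10 to 0.63). It was 0.45 without IDE-KD replicate 3 and 0.16 without IDE-KD replicate 2. The spread among the IDE-KD arrays (SD 0.37) was wider than among the controls (SD 0.10).

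Vegfc, which encodes the main lymphatic growth factor, stood above 95.7% of the negative control rows in control cells. It read 7.40, 6.86, 7.12 and 6.88 on the control arrays and 7.21, 7.01, 7.33 and 7.05 on the IDE-KD arrays. The means of 7.07 ± 0.25 and 7.15 ± 0.15 (SD, n = 4 each) differed by 0.08 (SE 0.15, interval -0.23 to 0.40). Its values followed the replicate number more than the group: the odd-numbered arrays of both groups read 7.12 to 7.40 and the even-numbered ones 6.86 to 7.05, without overlap. Such a separation of odd from even arrays, in either direction, was present at 1943 tested rows (8.78%), against 620 (2.80%) whose IDE-KD and control groups did not overlap. The labels give no batch that corresponds to it, and its part in the differences between groups was not tested.

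Vegfd and Pgf stood out less from the negative control rows. Vegfd, a second lymphatic ligand gene, read 5.04 to 5.23 on the control arrays and 5.03 to 5.23 on the IDE-KD arrays, above 70.5% of the negative control rows in control cells. Its 8 values spanned a narrow band, and the difference was -0.04 (SE 0.11, interval -0.29 to 0.20). Pgf, the placental growth factor gene, read 3.79, 4.59, 4.04 and 4.26 on control and 4.53, 4.22, 4.11 and 4.50 on IDE-KD arrays. That placed it above 48.9% of the negative control rows in control cells, so no clear expression of Pgf was detectable. Its difference of 0.17 (SE 0.17, interval -0.20 to 0.54) was 0.05 without control replicate 1 and 0.31 without control replicate 2.

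The receptor kinases were split between Kdr and the other two. Kdr, the gene of VEGFR2, read 8.92, 8.83, 9.01 and 8.71 on control arrays 1 to 4, above 99.0% of the negative control rows. On IDE-KD arrays 1 to 4 it read 8.49, 8.43, 8.45 and 8.50. Every IDE-KD array was below every control array, with a gap between the lowest control and the highest IDE-KD value, and the IDE-KD values lay closer together. Kdr was the 1 member of the 9 whose groups did not overlap, where 2.80% of tested rows had groups apart, 1.41% of them with IDE-KD lower. Since the family was picked with this difference known, nothing is read from that count.

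Kdr averaged 8.87 ± 0.13 on the control and 8.47 ± 0.03 on the IDE-KD arrays (SD, n = 4 each). The log2 difference of -0.40 (SE 0.11, interval -0.65 to -0.16) was 1.32-fold lower in IDE-KD cells, and the far end of the interval was 1.57-fold. Leaving out any array in turn gave -0.36 to -0.45. The other scalings, quantile normalization again, centred medians and cyclic loess, gave -0.38, -0.42 and -0.38. Kdr was not among the rows called over the whole array, of which there were 0.

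Flt1 and Flt4, the other VEGF receptor genes, were within the range of the negative control rows. Flt1 read 3.95, 3.17, 3.70 and 3.12 on the control arrays and 3.49, 3.37, 4.16 and 3.21 on the IDE-KD arrays, above 34.1% of the negative control rows in control cells. As for Vegfc, the odd-numbered arrays, at 3.49 to 4.16, were all above the even-numbered ones, at 3.12 to 3.37. The group difference was 0.07 (SE 0.23, interval -0.42 to 0.56) and turned to -0.13 without IDE-KD replicate 3, -0.03 without control replicate 2 and -0.05 without control replicate 4. Flt4 read 3.45, 3.84, 3.83 and 4.02 on control and 4.27, 3.72, 4.15 and 3.94 on IDE-KD arrays, above 40.2% of the negative control rows in control cells, with overlapping groups and a difference of 0.23 (SE 0.16, interval -0.11 to 0.57). It was 0.12 without control replicate 1 and 0.15 without IDE-KD replicate 1. The array reads 1 value per gene, so the soluble form of VEGFR1 and the membrane form cannot be told apart.

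**Figure D2:**
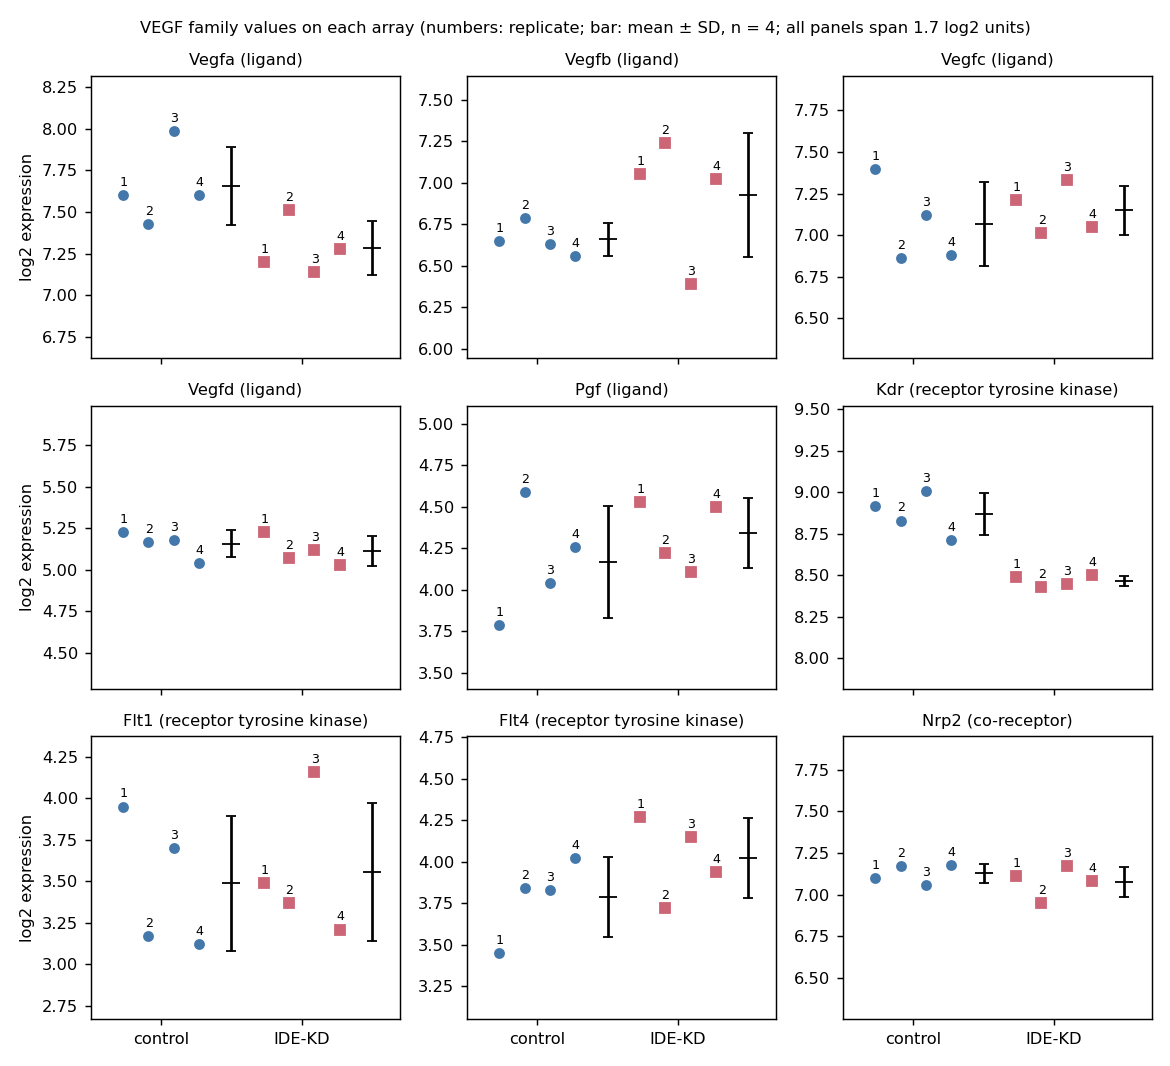
Log2 expression of the 9 measured VEGF family genes on each array (circles, control; squares, IDE-KD; numbers, replicate), with the mean ± SD of each group of 4 beside the points. Only in the Kdr panel do the groups of points not overlap; Vegfa shows lower IDE-KD values with overlap, and Vegfc and Flt1 show arrays 1 and 3 above arrays 2 and 4 in both groups.

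The stretches before the annotated starts of the 3 receptor genes and of Vegfa are shown because Kdr read high and Flt1 and Flt4 near the negative controls in the same cells, and because Vegfa and Kdr had the lowest differences of the family. They come from RefSeq on GRCm38.p6 and run 5′ to 3′ on the strand of the gene for 250 bases up to the base before the start: chr5:75978456-75978705 for Kdr (minus strand), chr5:147726012-147726261 for Flt1 (minus), chr11:49609429-49609678 for Flt4 (plus) and chr17:46032378-46032627 for the outer of 2 annotated starts of Vegfa (minus). Capitals mark the GC box GGGCGG and the TATA motif TATAAA, each read on both strands.
Kdr: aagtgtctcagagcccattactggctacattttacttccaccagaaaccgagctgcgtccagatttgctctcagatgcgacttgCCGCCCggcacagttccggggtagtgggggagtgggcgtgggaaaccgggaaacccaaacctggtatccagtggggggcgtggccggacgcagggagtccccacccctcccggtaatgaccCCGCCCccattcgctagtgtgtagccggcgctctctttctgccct
Flt1: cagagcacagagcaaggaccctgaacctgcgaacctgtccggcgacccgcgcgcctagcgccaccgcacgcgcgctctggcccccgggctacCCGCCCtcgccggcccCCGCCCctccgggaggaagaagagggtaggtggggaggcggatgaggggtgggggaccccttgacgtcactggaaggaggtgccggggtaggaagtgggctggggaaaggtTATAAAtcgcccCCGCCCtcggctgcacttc
Flt4: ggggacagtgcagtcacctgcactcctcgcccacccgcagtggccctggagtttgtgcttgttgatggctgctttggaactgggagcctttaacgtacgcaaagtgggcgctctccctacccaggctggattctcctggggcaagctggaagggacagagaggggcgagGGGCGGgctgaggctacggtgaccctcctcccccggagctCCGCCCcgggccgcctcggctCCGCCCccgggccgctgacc
Vegfa: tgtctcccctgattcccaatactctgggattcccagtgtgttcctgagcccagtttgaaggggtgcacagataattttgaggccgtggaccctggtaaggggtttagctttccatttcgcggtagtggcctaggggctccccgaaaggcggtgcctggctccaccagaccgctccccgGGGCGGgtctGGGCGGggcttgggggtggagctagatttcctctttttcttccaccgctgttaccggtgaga

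The Kdr stretch held 2 GC boxes, 166 and 45 bases before the start, and no TATAAA. Flt1 had 3 GC boxes and a TATAAA that began 31 bases before the start, Flt4 had 3 GC boxes and Vegfa 2, and neither of the latter had a TATAAA. The HIF binding core ACGTG and CGGAAG, a longer form of the ETS site, were searched on both strands and were in none of these 4 stretches. The shorter ETS core GGAA was not searched, so absence of CGGAAG does not mean absence of ETS sites. The stretch before the inner annotated start of Vegfa (chr17:46025164-46025413), not shown, held 1 ACGTG, 211 bases before that start, and 1 GC box. That stretch lies inside the RefSeq span of Vegfa (46016993 to 46032377), downstream of the outer start. Its ACGTG is thus within the gene and is not read as a promoter site. Sequence farther upstream of the outer start was not searched, so a HIF site of Vegfa there would have been missed. Among 32851 such stretches of the RefSeq table, 32.7% held GGGCGG, 12.4% TATAAA, 16.6% ACGTG and 13.6% CGGAAG. The GC content was 61.6% for Kdr, 70.4% for Flt1, 68.4% for Flt4 and 59.2% for Vegfa, against a median of 52.4%. The RefSeq spans of Kdr and Flt1 reach past these starts, to base 75979072 and base 147726438 of chromosome 5, so the stretches shown are not the outermost promoters of these 2 genes.

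Kdr lies on chromosome 5 of GRCm38.p6 (75932827 to 75979072) in a row with Pdgfra and Kit, which encode related receptor tyrosine kinases. Kit, the stem cell factor receptor gene (75574987 to 75656722), is the nearest protein-coding neighbour on that side and was also clearly expressed. It read 8.53, 8.35, 8.57 and 8.63 on control and 8.58, 8.56, 8.56 and 8.51 on IDE-KD arrays, a difference of 0.03 (SE 0.11, interval -0.21 to 0.28) that ranged from -0.026 to 0.069 with 1 array left out. Kit thus showed no gap between the groups on the arrays where Kdr did, and the difference between the genes was not tested. Pdgfra was not analysed here.

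The co-receptor gene Nrp2, whose product binds VEGF-C and class 3 semaphorins, read 7.10, 7.17, 7.06 and 7.18 on the control arrays and 7.11, 6.95, 7.17 and 7.08 on the IDE-KD arrays, above 96.0% of the negative control rows in control cells. The groups overlapped throughout. The difference was -0.05 (SE 0.11, interval -0.29 to 0.19), with SDs of 0.06 and 0.09 (n = 4 each).

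Across the 9 members, 5 were higher and 4 lower in IDE-KD cells, with a median difference of 0.07, beside 52.1% higher and a median of 0.01 over all tested rows. The 95% interval excluded a 2-fold change for all 9 measured members, as for 99.7% of all tested rows, and a 1.5-fold change for 6 of the 9, as for 83.6% of all tested rows. The 3 others were Vegfa, Vegfb and Kdr.

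**Figure D3:**
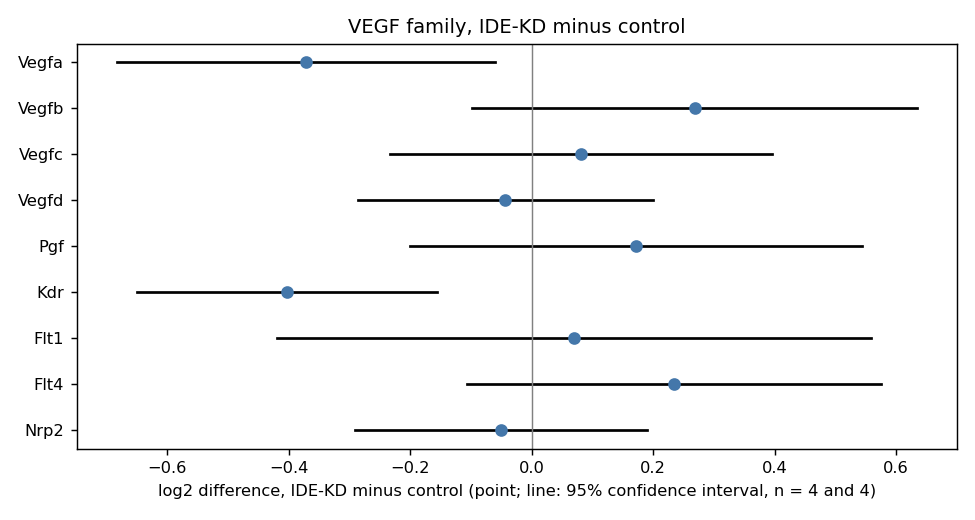
Log2 differences, IDE-KD minus control, of the 9 VEGF family genes (points) with 95% confidence intervals (lines; 4 arrays per group). The intervals of Kdr (-0.65 to -0.16) and Vegfa (-0.68 to -0.06) lie below 0, and the other 7 include 0. Such an interval excludes 0 where the unadjusted p in limma is under 0.05, as for 4.59% of all tested rows. The family was picked with these differences known, so nothing is read from that.

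**Figure D4:**
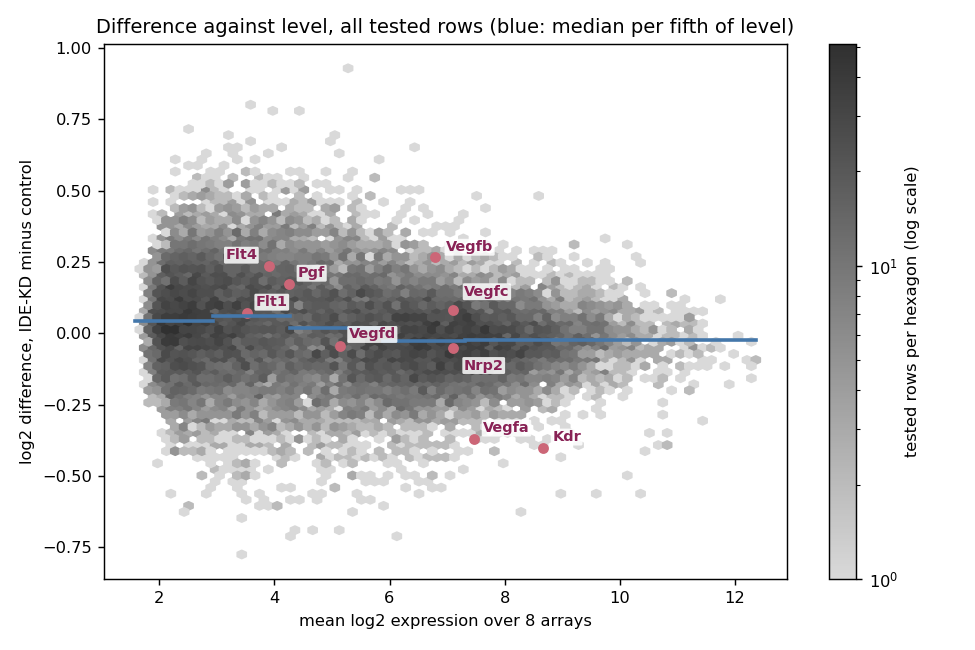
Log2 difference, IDE-KD minus control, against mean log2 expression over the 8 arrays for all 22142 tested rows (hexagons shaded by the number of rows on a log scale), with the VEGF family as labelled points and the median in each of 5 equal bins of level as blue lines. Kdr, at -0.40, and Vegfa, at -0.37, lie at the lower edge of the rows of their level, where the median was -0.03.

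The profile of Kdr over the 8 arrays, centred on the control mean, was compared with the 9763 other named genes above the median level of the tested rows. The nearest were Ipp, which encodes an actin-binding kelch protein, with a root mean square difference from Kdr of 0.09 log2 units, Sh3pxd2a, a podosome scaffold gene, with 0.09, the histone demethylase gene Kdm2a with 0.10, the zinc finger gene Zfp759 with 0.10 and the cytokine receptor kinase gene Jak1 with 0.11, against a median of 0.33. Their log2 differences were -0.40, -0.34, -0.34, -0.41 and -0.31. These genes were found by their likeness to Kdr, so these values are a description.

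Genes that act before and beside the receptors gave no call. For the lists of genes around the family, limma called 0 members in any of the 15 at an adjusted p under 0.05 over all rows, so members with the smallest unadjusted p are named with their values only. In the list of proteases, convertases and matrix proteins that process or release VEGF ligands, 12 of 20 genes were higher and 8 lower (median 0.02; -0.019 without IDE-KD replicate 1, -0.00014 without IDE-KD replicate 3 and -0.0073 without IDE-KD replicate 4). Ccbe1, whose product promotes the cleavage of VEGF-C, averaged 4.42 ± 0.24 on the control and 4.88 ± 0.17 on the IDE-KD arrays (SD, n = 4 each; difference 0.46, SE 0.15), a dim signal not far above the median negative control row. The heparan sulphate proteoglycan gene Sdc4 read 6.08 ± 0.11 and 6.39 ± 0.15 (difference 0.31, SE 0.12). These were the 2 genes of that list whose groups did not overlap, where 1.39% of tested rows had groups apart with IDE-KD higher.

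Among the neuropilin partners, class 3 semaphorins, plexins and Gipc1, 3 of 13 were higher and 10 lower (median -0.07). Sema3b, a semaphorin gene, differed by 0.30 (SE 0.15), or 0.20 when IDE-KD replicate 3 was left out, and the plexin gene Plxna1 by -0.29 (SE 0.15). In the signal transduction list, 19 of 45 measured genes were higher and 26 lower (median -0.04; 0.0062 without IDE-KD replicate 3), with the docking protein gene Gab1 at -0.27 (SE 0.14), which was -0.18 when IDE-KD replicate 2 was left out, and the calcineurin target Nfatc4 at -0.27 (SE 0.14, and -0.17 without control replicate 3). Of the receptor trafficking and turnover list, 5 of 18 were higher and 13 lower (median -0.05), with the raft protein gene Flot1 at 0.28 (SE 0.13) and the endocytic motor gene Myo6 at -0.24 (SE 0.14, and -0.16 without control replicate 2 or -0.14 without IDE-KD replicate 4). In that list 13 of 18 lay above 90% of the negative control rows, in level bins 4 and 5, where 42.4% and 39.9% of all rows were higher. Genes that VEGF induces in endothelium had 7 of 12 higher and 5 lower (median 0.08), with the nuclear receptor genes Nr4a1 at 0.21 (SE 0.12) and Nr4a2 at 0.21 (SE 0.16, and 0.37 without IDE-KD replicate 3).

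Hypoxia-inducible factors (HIF) are the best known inducers of Vegfa. Of 17 HIF pathway regulators, 3 were higher and 14 lower (median -0.06), with Hif3a at 0.24 (SE 0.14, and 0.15 without control replicate 2) and the oxygen-sensing prolyl hydroxylase gene Egln2 at -0.21 (SE 0.13). Of these 17, 15 lay above 90% of the negative control rows, which put them in bins 4 and 5 of the 5 level bins. In those bins 42.4% and 39.9% of all rows were higher in IDE-KD cells, with medians of -0.03 and -0.03. The mean of this list relative to control was -0.10 and -0.16 on IDE-KD arrays 1 and 3 and 0.01 and 0.01 on arrays 2 and 4. These 2 arrays also spread least over the tested rows, with SDs of 2.16 and 2.13 where the remaining 6 had 2.20 to 2.25, and the part of that in the list's median was not tested. Of 20 HIF targets other than Vegfa, 9 were higher and 11 lower (median -0.02). That median turned to 0.042 and 0.021 without control replicates 2 and 4 and to 0.015 and 0.023 without IDE-KD replicates 1 and 3. The smallest unadjusted p values were those of the hexokinase gene Hk2 at -0.29 (SE 0.12) and Pdk1, a kinase gene that restrains pyruvate oxidation, at 0.28 (SE 0.16). Transcription factors known for the Kdr gene in endothelium had 9 of 15 higher and 6 lower, with a median of 0.0073 that was -0.026 without control replicate 4 and -0.013 and -0.027 without IDE-KD replicates 1 and 3. Erg read 0.24 (SE 0.13) and Ets1 0.23 (SE 0.16; 0.085 without control replicate 2 and 0.15 without IDE-KD replicate 2), both near the median negative control row at 4.30 and 4.43.

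Other angiogenic ligands had 13 of 17 higher and 4 lower (median 0.05). Kitl, which encodes the ligand of Kit, read 4.90, 4.52, 4.98 and 4.99 on control and 5.10, 5.82, 5.11 and 5.08 on IDE-KD arrays, a difference of 0.43 (SE 0.18) that was 0.25 without IDE-KD replicate 2. The fibroblast growth factor gene Fgf1 differed by 0.40 (SE 0.19), and by 0.21 without IDE-KD replicate 3. Among other angiogenic receptors, 11 of 17 measured genes were higher and 6 lower (median 0.10), with the TGF-beta co-receptor gene Eng at 0.57 (SE 0.15) and Notch4 at 0.23 (SE 0.12). Eng read 2.75 ± 0.21 and 3.32 ± 0.23 (SD, n = 4 each), below the median negative control row in both groups. Angiogenesis inhibitors had 7 of 13 higher and 6 lower (median 0.03; -0.015 without control replicate 2, and -0.069 and -0.014 without IDE-KD replicates 1 and 3), with the endostatin precursor gene Col18a1 at 0.27 (SE 0.12) and the signalling inhibitor gene Spred2 at -0.24 (SE 0.14, and -0.13 without IDE-KD replicate 3).

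Markers of other cells were mostly dim. Endothelial markers had 17 of 18 measured genes higher and 1 lower in IDE-KD cells (median 0.13), with Eng and the tight junction gene Cldn5 at 0.31 (SE 0.15). Most of these markers, 11 of 18, lay in bin 2 of the 5 level bins, in which 62.0% of all rows were higher in IDE-KD cells, with a median of 0.06. The mean of these markers relative to control was 0.19 and 0.27 on IDE-KD arrays 1 and 3, the arrays with the least spread, and 0.08 and 0.12 on arrays 2 and 4; the part of that spread was not tested. The direction of these markers was opposite to that of Kdr. With 0 of the 18 above 90% of the negative control rows, nothing is read from that. Pericyte and fibroblast markers had 7 of 11 higher (median 0.10; -0.018 without control replicate 2), with the proteoglycan gene Lum at 0.30 (SE 0.13) and the PDGF receptor gene Pdgfrb at -0.18 (SE 0.16; -0.096 and -0.28 without control replicates 1 and 3, and -0.29 without IDE-KD replicate 1). The list of beta and delta cell markers also held Ppy and Ghrl, hormone genes of other islet cells. It had 8 of 10 higher (median 0.14). The transcription factor genes Nkx6-1 and Hhex differed by -0.30 (SE 0.14) and 0.30 (SE 0.18, and 0.19 without control replicate 2). Nkx6-1, at 6.64, was the 1 gene of this list above 90% of the negative control rows. It was above 93.3% of them, where Irx1 of the alpha cell list was above 90.9%. Alpha cell markers had 5 of 11 higher and 6 lower (median -0.02), with Irx1 at -0.18 (SE 0.11) and the chromatin remodeller gene Smarca1 at 0.23 (SE 0.15, and 0.098 without IDE-KD replicate 2), while Gcg differed by 0.0043 (SE 0.11; -0.030 to 0.044 with 1 array left out).

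**Figure D5:**
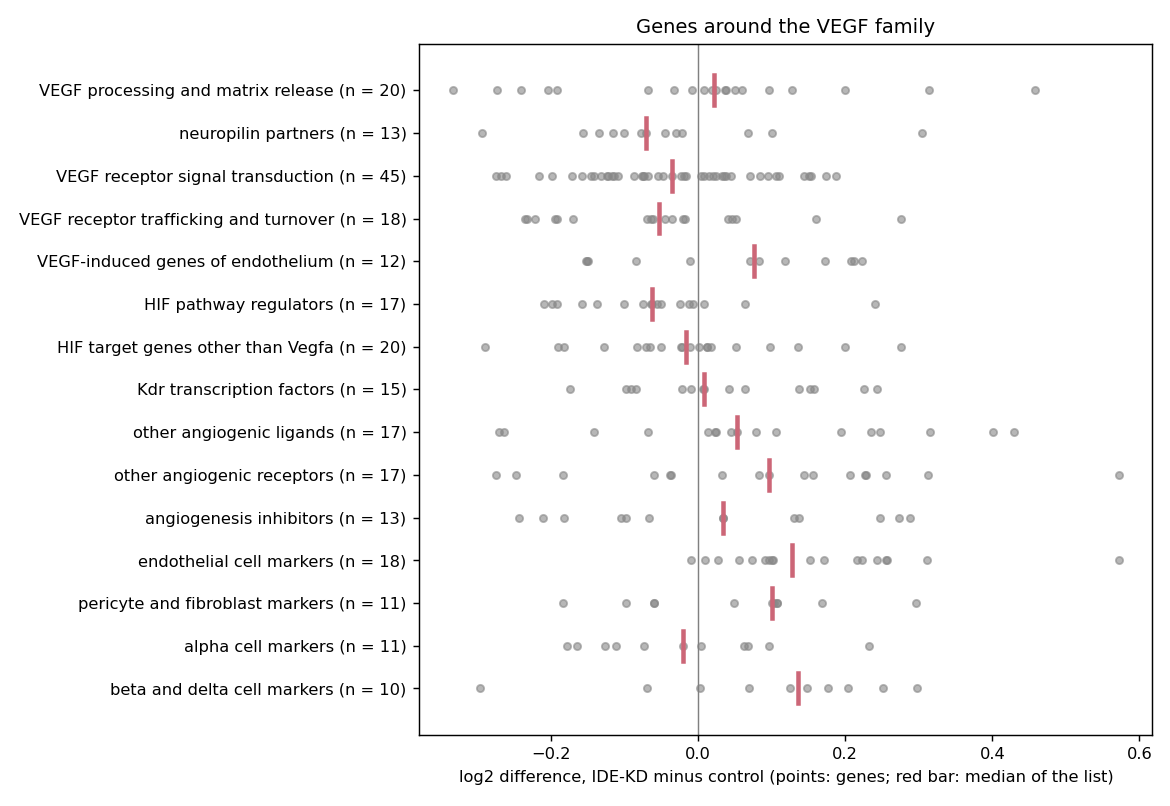
Log2 differences, IDE-KD minus control, of the measured genes of 15 lists around the VEGF family (points) and the median of each list (red bars). The medians run from -0.07 for the neuropilin partners to 0.14 for the beta and delta cell markers, and 0 genes passed the threshold of limma over all rows.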

How the data were processed

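The authors deposited log2 expression values with 1 column per array. RMA, oligo and limma appear in the submitters' processing notes, with no version. RMA in its usual form equalises the distributions of the arrays and compresses low signals. The probe sets' genome build is not stated in the labels. The values were used as deposited. Of 29129 rows, 22142 transcript clusters were tested, and 6546 negative or positive control rows and 441 others were left out. The platform table gave a symbol for 19527 tested rows, all matched by Entrez identifier to RefSeq (GRCm38.p6), with 0 updated; 2615 rows are unnamed. A gene with several rows was represented by the brightest.

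IDE-KD minus control was fitted over all 8 arrays with limma 3.58.1 (lmFit, eBayes) in R 4.3.3 without covariates. It was adjusted by Benjamini-Hochberg over all tested rows at 0.05. The fit was checked on simulated independent values with changes larger than any difference of the members. That check does not cover smaller changes or deviations shared between arrays. The number of arrays limits the precision. Array medians lay between 5.10 and 5.17. Levels are means ± SD. Differences have SEs and intervals from limma, with variances drawn toward those of all tested rows.

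The members and the 15 lists were chosen with earlier results of these data known. Named by rule were all members, Ide, Gcg, Kit and Pdgfra, of each list the members past the threshold or else the 2 with the smallest p, and the 5 profiles nearest to Kdr by root mean square difference, leaving out predicted genes and olfactory or vomeronasal receptors. Alternatives were 3 scalings, array weights, a trended robust prior, the replicate number as a block, each array left out, and a filter on dim rows. Promoter sequences came from the RefSeq table; protein sequences were not used here.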

Additional observations from a re-analysis of the deposited data

Results flagged for a closer look

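Among the named genes, 92 groups of 4 arrays were examined for an array far from the other 3, which chance gives for about 1 group in 20, and 5 met the criterion; 0 of them were VEGF family members. Flot1 read 8.21 on control array 4 against 7.80 to 7.85 on the others. Egln2 read 6.48 on control array 3 against 6.81 to 6.85. Kitl read 5.82 on IDE-KD array 2 against 5.08 to 5.11. Notch4 read 5.15 on IDE-KD array 3 against 4.91 to 4.94. Irx1 read 6.36 on control array 3 against 6.48 to 6.50.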

How the results depend on the processing

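The count of rows past the adjusted threshold was 0 under every alternative run, with a smallest adjusted p in limma of 0.15, with the trended robust prior. Rows whose groups did not overlap numbered 378 of 13602 above the median negative control row, and 1009 to 1460 with 1 array left out, where fewer arrays are compared. Kdr stayed between -0.45 and -0.36 and Vegfa between -0.45 and -0.26 over 14 alternatives each. Of the 9 members, 8 kept their sign in all 14, and Flt1 in 10 of 14. These 14 include the trended robust prior and the replicate block. Neither can change a difference when each replicate number occurs once per group, so their agreement is no check on it. With 1 array left out, Vegfb ranged from 0.16 to 0.45, Vegfc from 0.01 to 0.19, Vegfd from -0.08 to -0.01, Pgf from 0.05 to 0.31, Flt1 from -0.13 to 0.22, Flt4 from 0.12 to 0.33 and Nrp2 from -0.08 to -0.0092. List medians ranged from -0.027 to 0.073 for the transcription factors of Kdr, from 0.041 to 0.23 for other angiogenic receptors, from -0.069 to 0.064 for angiogenesis inhibitors and from 0.11 to 0.20 for endothelial markers. Medians that turned sign with 1 array left out were also those of VEGF processing (-0.019 to 0.081), signal transduction (-0.055 to 0.0062), HIF targets (-0.066 to 0.042) and pericyte and fibroblast markers (-0.018 to 0.11). The inhibitors' median was -0.10 over members above the median negative control row, where fewer genes entered; the other causes were not tested. Same-numbered arrays shared deviations with correlations of 0.10, 0.13, 0.09 and 0.10, which does not establish a pairing. Differently numbered arrays, both odd or both even, gave 0.17 (control 1, IDE-KD 3), 0.16 (control 3, IDE-KD 1), 0.21 (control 2, IDE-KD 4) and 0.02 (control 4, IDE-KD 2). An odd array with an even one gave -0.23 to -0.05. The shared deviations thus went with odd and even numbers, and the cause was not tested. With the replicate block, 0 rows passed and 1253 had an unadjusted p under 0.05 in limma. Kdr at -0.40 and Vegfa at -0.37 were the same by design, since such a block cannot change a group difference here. Dim rows limit what Flt1, Flt4 and Pgf can show.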
